A study of Rattus norvegicus with 14 samples.

Results

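Claudins, desmosomal cadherins, plakophilins and connexins are the building blocks of 3 kinds of cell junction, and 40 of their genes were read on arrays of newborn rat foreskin. The 40 were all genes among 14497 tested whose probe set carried a single symbol of the claudin (Cldn), desmoglein (Dsg), desmocollin (Dsc), plakophilin (Pkp) or connexin (Gja, Gjb, Gjc, Gjd) type. They comprised 22 claudins, 1 desmoglein, 2 desmocollins, 3 plakophilins and 12 connexins, each with 1 probe set, and no filter on low values was applied, so all 40 entered the test. Dsg1, Dsg2, Dsg3 and Dsc1 were not analysed here.

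Pregnant Sprague Dawley rats were given corn oil, the vehicle, or flutamide, a drug that blocks the androgen receptor, at 5 mg/kg/day, by oral gavage on gestational days 16 to 20. Both groups were sampled at postnatal day 5, as 7 litters each, and RNA of 2 foreskins was pooled per litter, so the litter was the replicate and differences between siblings cannot be seen. Values are log2 array signals after RMA, which corrects background and normalises arrays to each other. Signals of different probe sets are not on a common scale of transcript number, so genes were compared between groups and not with each other.

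Tight junctions seal the space between epithelial cells, and claudins are the transmembrane proteins that set whether the seal is closed or lets particular ions through. Desmosomes tie cells together mechanically: desmogleins and desmocollins are the adhesive cadherins, and plakophilins link them inside the cell to the keratin filaments. Connexins assemble into gap junction channels through which small molecules pass from cell to cell. In skin these systems hold the stratified epidermis and the hair shaft together and make part of the water barrier.

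The samples carried epidermal and dermal signal, as the tissue label says. The suprabasal keratin gene Krt10 averaged 12.3 ± 0.09 and 12.3 ± 0.04 (SD, n = 7 each) in corn oil and flutamide litters, the basal keratin gene Krt14 averaged 9.87 ± 0.12 and 9.82 ± 0.16, and the collagen gene Col1a1 averaged 9.01 ± 0.14 and 9.08 ± 0.17. The medians of the 14 arrays spanned 0.073. Any pair of arrays correlated across genes at 0.984 to 0.992. Precision depends on how many litters there were and on how far they spread. The median standard error of a junction gene's difference was 0.07 on the log2 scale, from 0.05 for Gjb2 to 0.14 for Cldn24.

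Sequence next to the start sites was read for 31 of the 40 genes from RefSeq on the GRCr8 assembly of the rat genome, because flutamide acts on a transcription factor. With the array's own build not given in the sources used here, these positions locate the genes and not the probes. The first set shows the 150 bases before the start of 3 members with small p-values, 1 each of the desmogleins, claudins and connexins. Capitals mark a CCAAT box (CCAAT, or ATTGG on the other strand) or a GC box (GGGCGG, or CCGCCC on the other strand). Dsg4 lies on the plus strand, chr18:11995752-11995901, Cldn17 on the minus strand, chr11:41314852-41315001, and Gjb2 on the minus strand, chr15:35381954-35382103.
Dsg4: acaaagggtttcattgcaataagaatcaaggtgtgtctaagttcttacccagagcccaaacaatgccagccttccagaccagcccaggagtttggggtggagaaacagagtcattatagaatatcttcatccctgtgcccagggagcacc
Cldn17: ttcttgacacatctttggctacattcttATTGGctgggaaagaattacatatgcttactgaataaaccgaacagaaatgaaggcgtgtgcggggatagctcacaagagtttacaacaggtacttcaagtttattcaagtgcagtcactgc
Gjb2: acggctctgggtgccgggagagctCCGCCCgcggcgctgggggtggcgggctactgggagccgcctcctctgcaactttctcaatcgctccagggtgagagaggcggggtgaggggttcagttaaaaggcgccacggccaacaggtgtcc
The Gjb2 stretch was 68.0% G and C and held a GC box, the Cldn17 stretch was 40.7% G and C and held a CCAAT box, and the Dsg4 stretch, at 48.0%, held neither. Over the whole 250 bases before the start, 17 of the 31 genes had a GC box, which 30.5% of all 33469 promoters in the table had, and 11 had a CCAAT box, which 34.0% had. The 11 included Dsg4, although the 150 bases shown for it held none.

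The full palindromic androgen response element, AGAACA and TGTTCT with 3 bases between them, was found in none of the 31 and in 0.0120% of all promoters. Its half-site, TGTTCT or AGAACA on the other strand, was found within the 250 bases in 4 of the 31 genes and in 17.5% of all promoters. The 4 genes are shown with up to 12 bases on either side and the half-site in capitals.
Cldn16: ccaagggggaggAGAACAgctccctctccc
Cldn20, far site: ttccatagctttTGTTCTatgggtctcaac
Cldn20, near site: gggtcttctaggAGAACAgaagtcagagta
Dsc3: agtcAGAACAggcggctccggg
Gjb6: gaatctgaccagTGTTCTagaagagaaacg
These lie at chr11:87814482-87814511 (minus strand), chr1:46538927-46538956 and chr1:46539004-46539033 (plus strand), chr18:11689100-11689121 (minus strand) and chr15:35409112-35409141 (minus strand). The differences of these genes between flutamide and corn oil litters were 0.26 for Cldn16, 0.07 for Cldn20, -0.04 for Dsc3 and 0.11 for Gjb6 on the log2 scale. A match of letters describes the sequence and is not a measured binding site.

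None of the 40 junction genes passed limma's moderated test at a Benjamini-Hochberg adjusted p under 0.05 over all genes, where 0.00690% of all genes tested passed, which was 1 gene. At an unadjusted p under 0.05 there were 7 of 40, against 9.16% of all genes. Of these, 4 had higher values in flutamide litters, against 5.70% of all genes, and 3 had lower values, against 3.46%. The 3 lower members became 1, Dsg4, without corn oil replicate 2, corn oil replicate 6, flutamide replicate 3 or flutamide replicate 5, since Gja6 and Cldn22 then missed that threshold. With each array centred on its own median the members' counts were the same, while over all genes 668 were higher and 641 lower in place of 826 and 502. These 7 were Cldn17, Cldn19, Cldn16 and Gjb2 on the higher side and Dsg4, Gja6 and Cldn22 on the lower side. The 95% confidence interval of the difference lay within 1.5-fold in both directions for 39 of the 40, with the exception of Cldn17, and for 99.3% of all genes. In whole tissue, fewer cells of a type and less RNA per cell cannot be told apart, which holds for every difference given here.

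**Figure D1:**
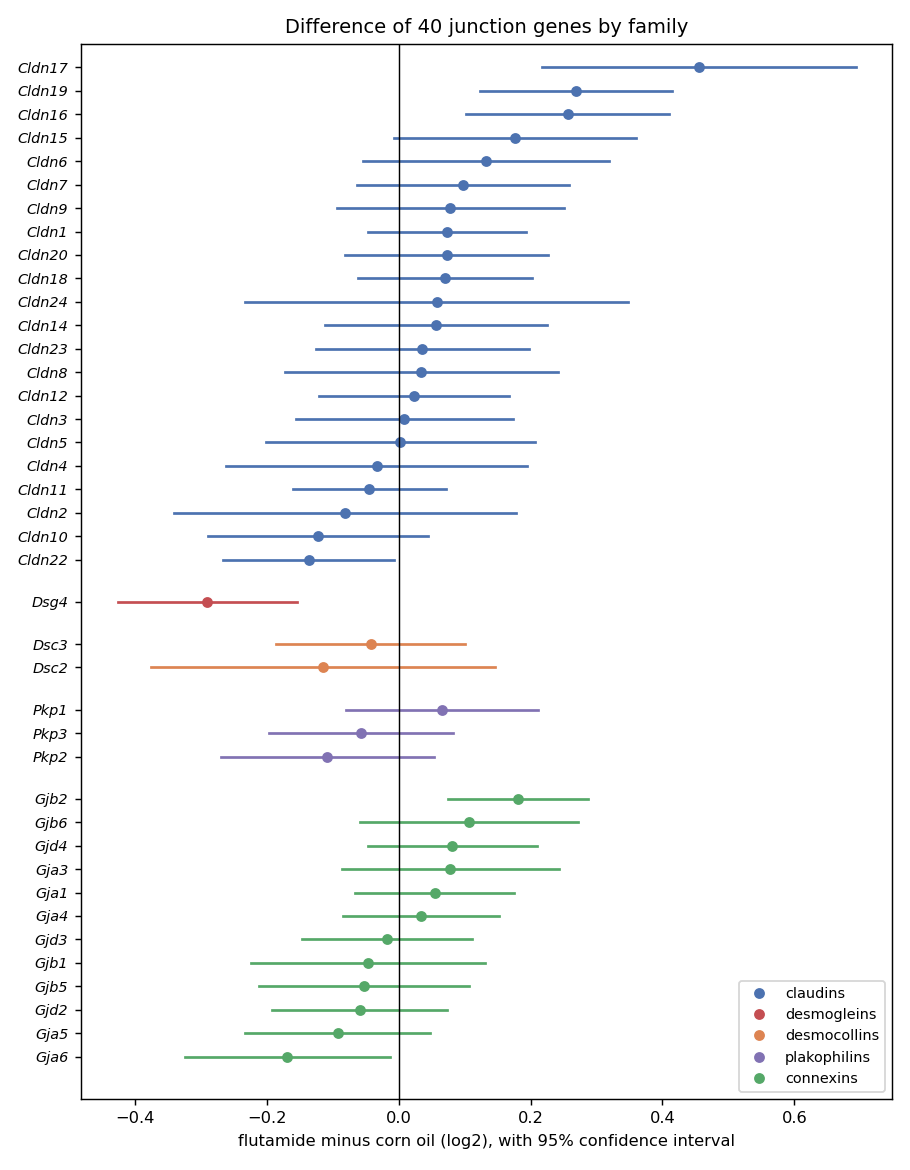
Difference of each of the 40 junction genes between flutamide and corn oil litters, on the log2 scale, with its 95% confidence interval from limma, grouped and coloured by family. Cldn17 lies farthest to the right at 0.45 and Dsg4 farthest to the left at -0.29, while most other intervals include 0.

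Among the families the claudins had a median difference of 0.06 on the log2 scale, with 17 of 22 above 0, beside a median of 0.005 and 52.3% above 0 over all genes tested. The median signal of the claudins was 5.63, beside 5.89 over all genes tested. With each array centred on its own median, 15 of the 22 claudins were above 0 and their median was 0.05. The claudin median was 0.032 without corn oil replicate 1, with 15 of 22 above 0, and 0.026 with flutamide replicate 7 left out as well, with 14 of 22. It was 0.037 with array weights, with 14 of 22, and 0.037 with quantile normalization, with 16 of 22. The connexins were evenly divided, with 6 of 12 above 0 and a median of 0.008. Both desmocollins, 2 of the 3 plakophilins and the 1 desmoglein were below 0. The members were also divided into 3 bands by their mean signal, since dim genes as a whole had slightly higher values in flutamide litters. The dimmest 14 members had a median difference of 0.07, beside 0.03 for the 2935 genes in the same signal range. The middle 13 had 0.009, beside 0.008 for 3826 genes, and the brightest 13 had 0.02, beside -0.01 for 5601 genes. Above 0 were 9 of the dimmest 14 members, beside 60.5% of genes in that range. The middle band had 7 of 13 above 0, beside 54.0%, and the brightest 8 of 13, beside 43.2%. Of the 4 members higher at an unadjusted p under 0.05, Cldn16 and Cldn19 were in the dimmest band, Cldn17 in the middle and Gjb2 in the brightest. In the signal range of the dimmest band, 238 of the 2935 genes were higher at that threshold and 87 lower.

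**Figure D2:**
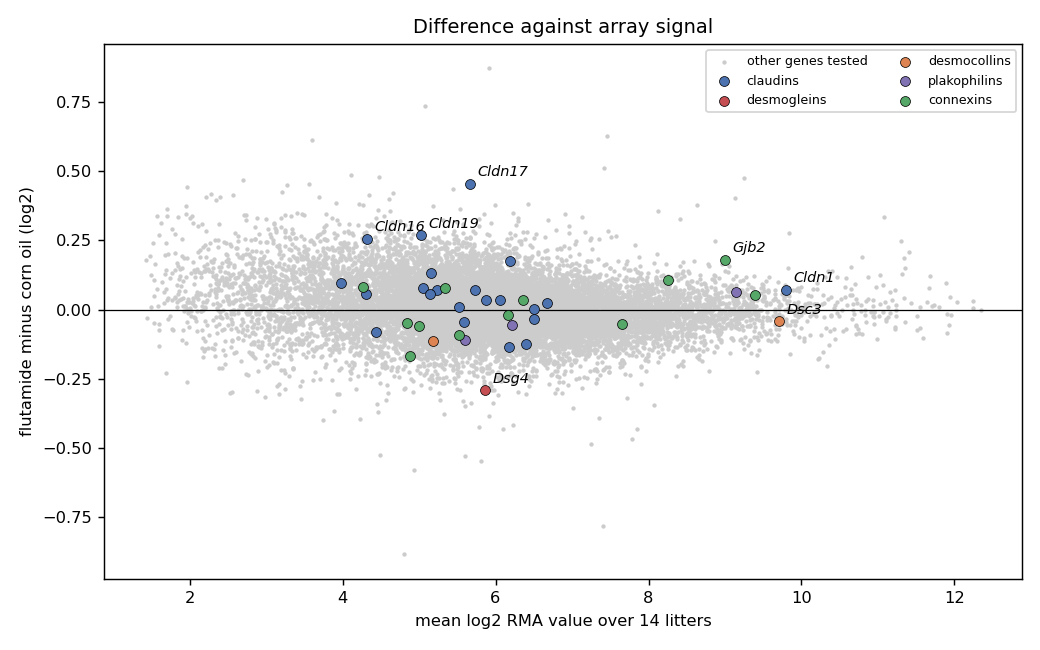
Difference between flutamide and corn oil litters (log2) against the mean log2 signal over 14 litters, for the 40 junction genes in colour and all other genes tested in grey. Cldn16 and Cldn19 sit in the dim part with mean signals of 4.32 and 5.03, whereas Gjb2 sits among the bright genes at the right.

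The desmosomal cadherin Dsg4, the desmoglein of the hair shaft, whose loss gives sparse broken hair, had the smallest p-value of the group. Its lowest, median and highest values were 5.73, 6.03 and 6.13 in corn oil litters and 5.61, 5.71 and 5.83 in flutamide litters. All 7 flutamide litters lay below the corn oil median, and the groups overlapped because corn oil replicate 1 was at 5.73 while the other 6 corn oil litters lay at 5.97 or above. The difference was -0.29 (SE 0.06), a 0.818-fold level, with a limma adjusted p of 0.302. Without corn oil replicate 1 it was -0.34 with an adjusted p of 0.0923, so the gene did not pass without that litter either.

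Of 13 measured hair follicle markers 10 had lower and 3 higher values in flutamide litters. Over the 13 measured of 16 markers, which include keratins of the inner root sheath and shaft and do not include Dsg4, the mean log2 value ran from 6.44 to 6.73 in corn oil and from 6.43 to 6.68 in flutamide litters. The list means overlapped, while the corn oil litters other than replicate 1 lay at 6.61 or above. The list mean differed by -0.09 between the groups, or by -0.12 without corn oil replicate 1. Of the 13 markers 3 were lower at an unadjusted p under 0.05, against 3.46% of all genes tested. None passed the adjusted threshold, and the median difference over the list was -0.11. The smallest p-values belonged to the homeobox gene Msx2, at -0.18, and to Krt73, a keratin of the inner root sheath, at -0.30, at limma adjusted p-values of 0.348 and 0.302. The shaft keratins were divided: Krt31 and Krt85 differed by -0.15 and -0.02, and Krt33b and Krt35 by 0.05 and 0.11. The third higher marker was Foxn1, at 0.05. Corn oil replicate 1 was the lowest of its group on this list too, at 6.44. Deviations of Dsg4 and of the list from their group means had a Pearson r of 0.71 over 14 litters (permutation p = 0.0169, adjusted over 4 such pairs 0.0338) and a Spearman rho of 0.50 (permutation p = 0.0812, adjusted 0.0812). Without the 2 litters farthest out, corn oil replicate 1 and flutamide replicate 1, r was 0.48, so the relation rests in part on those litters. Within corn oil alone r was 0.89 and within flutamide alone 0.44. By r over all 14 litters Dsg4 ranked 115 of 14484 genes outside the list, which describes these samples and is not a test. This pair of gene and list was chosen after the values had been seen, which the adjustment over 4 pairs does not cover. The part of hair follicle content in the Dsg4 difference was not tested.

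The desmocollins, the partner cadherins of desmogleins, gave no call. Dsc3, a cadherin of basal and lower suprabasal keratinocytes, had values of 9.51, 9.74 and 9.95 (lowest, median, highest) in corn oil and 9.58, 9.66 and 9.85 in flutamide litters. The groups overlapped over most of their range, and the difference was -0.04 (SE 0.07; 95% confidence interval -0.19 to 0.10; limma adjusted p = 0.895). Dsc2, a widely expressed desmocollin, varied more between litters, with a pooled SD of 0.27 against 0.12 for Dsc3. Its difference was -0.11 (interval -0.38 to 0.15, limma adjusted p = 0.822). Dsc2 and Dsg4 were thus both below 0, and neither passed the adjusted threshold.

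The plakophilins likewise stayed close to 0. Pkp1, the plakophilin of suprabasal epidermis, had values of 8.99, 9.11 and 9.24 in corn oil and 8.93, 9.19 and 9.36 in flutamide litters (lowest, median, highest). The flutamide range enclosed the corn oil range, and the difference was 0.07 (SE 0.07; interval -0.08 to 0.21). Pkp3, found in all layers of epidermis, differed by -0.06 (interval -0.20 to 0.08), and Pkp2, the plakophilin of heart muscle and some epithelia, by -0.11 (interval -0.27 to 0.05). Other proteins of the desmosome were read from a list of 6, of which 4 were measured, 3 above 0 and 1 below, with a median difference of 0.03. Perp, a tetraspan membrane protein of desmosomes, had the smallest p of these with 0.15 (SE 0.06; limma adjusted p = 0.486), and Ppl, the cornified envelope protein periplakin, differed by -0.04 (SE 0.06).

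Among the claudins Cldn17, which forms an anion-selective pore, had the largest difference of all 40 genes. Its lowest, median and highest values were 5.17, 5.49 and 5.67 in corn oil and 5.52, 5.74 and 6.27 in flutamide litters. In the flutamide group 6 of 7 litters lay above every corn oil litter, and 3 of them, replicates 1, 3 and 6, stood well above the other 4 at 6.13, 6.19 and 6.27. The difference was 0.45 (SE 0.11), a 1.37-fold level, with a limma adjusted p of 0.302. It ran from 0.39 without flutamide replicate 6 to 0.52 without flutamide replicate 4.

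The mean of keratin genes of mucosal and activated stratified epithelium was highest in the same 3 flutamide litters as Cldn17, while the single keratin Krt13 was not. Of a list of 7 such markers 4 were measured and all 4 were above 0. At an unadjusted p under 0.05, 2 of the 4 were higher, against 5.70% of all genes tested, and none passed the adjusted threshold. Krt13, a keratin of non-cornified epithelium, differed by 0.51 (SE 0.20) and Krt16, a keratin of activated keratinocytes, by 0.63 (SE 0.27), with limma adjusted p-values of 0.443 and 0.506. Krt4, the partner of Krt13, differed by 0.28 (SE 0.16) and Krt24 by 0.02 (SE 0.07). The mean of the 4 ran from 6.06 to 6.71 in corn oil and from 6.25 to 7.11 in flutamide litters, with replicates 1, 3 and 6 of flutamide at 6.87, 6.93 and 7.11, as the 3 highest of all 14. Krt13 was high in replicates 3 and 6, at 8.43 and 8.35, but at 7.33 in replicate 1, among the other 4 flutamide litters. Krt16 was high in replicates 1 and 6, at 9.17 and 8.63, but at 7.63 in replicate 3, next to replicate 4 at 7.52. The highest corn oil litter on this mean, replicate 1 at 6.71, also had the highest Cldn17 value of its group.

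Taken as deviations from the group means, so that the group difference plays no part, Cldn17 and the mucosal keratin mean had a Pearson r of 0.90 over 14 litters (permutation p = 0.00012, adjusted over 4 pairs 0.00048) and a Spearman rho of 0.89 (permutation p = 0.00013, adjusted 0.00052). Without flutamide replicate 6 and corn oil replicate 1, the 2 farthest out, r was 0.87. Within corn oil alone r was 0.70 and within flutamide alone 0.97, over 7 litters each, and over the 11 litters other than flutamide replicates 1, 3 and 6 it was 0.67. Of 14493 genes outside the list, Cldn17 ranked 2 by this r, which describes these samples and is not a test. The next junction gene was Dsc2 with an r of 0.76, although Dsc2 itself differed between the groups by only -0.11. The pairs of genes and lists were chosen after the values had been seen, and the part of mucosal epithelium in the Cldn17 difference was not tested.

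**Figure D3:**
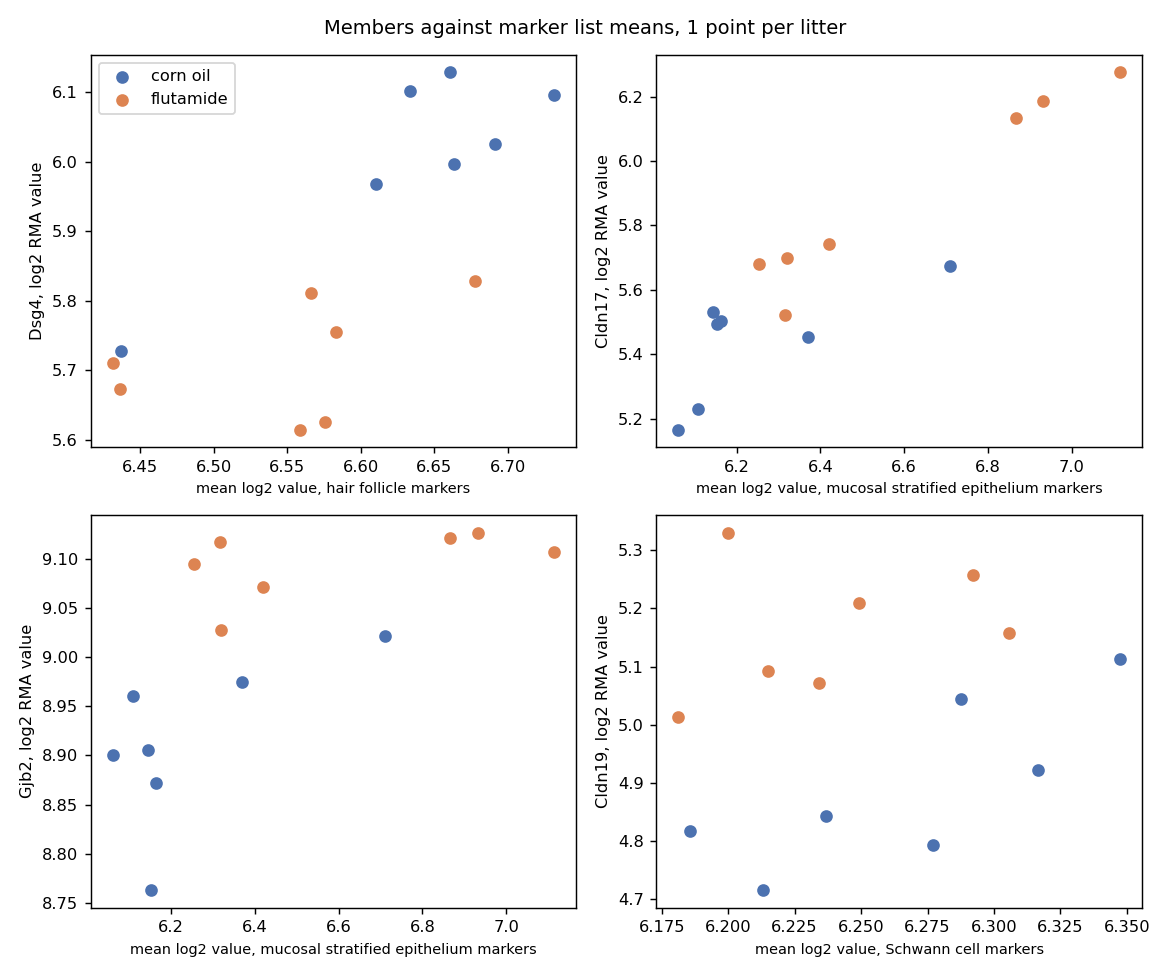
Log2 value of 4 junction genes (vertical axes) against the mean log2 value of a cell marker list (horizontal axes), 1 point per litter, corn oil in blue and flutamide in orange. Cldn17 climbs with the mean of the mucosal keratins across both groups, with 3 flutamide litters at the upper right, while Cldn19 and Schwann cell markers leave the groups apart at equal list means.

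Cldn19 and Cldn16, which form a cation-selective tight junction of the kidney tubule together, were both higher in flutamide litters on dim probe sets. Cldn19, also a tight junction protein of Schwann cells, had values of 4.72, 4.84 and 5.11 in corn oil and 5.01, 5.16 and 5.33 in flutamide litters (lowest, median, highest). All flutamide litters exceeded the corn oil median and 4 exceeded every corn oil litter. The difference was 0.27 (SE 0.07; limma adjusted p = 0.302). Schwann cell markers, 5 of 7 measured, did not share its direction: 4 of the 5 were below 0, with a median difference of -0.06 and none at an unadjusted p under 0.05, and their mean ran from 6.19 to 6.35 in corn oil and from 6.18 to 6.31 in flutamide litters. Within groups Cldn19 and these markers had an r of 0.60 (permutation p = 0.0381, adjusted 0.0401) and a rho of 0.59 (permutation p = 0.0405, adjusted 0.0811). The r was 0.45 without corn oil replicates 5 and 7, 0.78 within corn oil alone and 0.30 within flutamide alone. By r over all 14 litters Cldn19 ranked 206 of 14492 genes outside the list, and the junction gene Cldn22 was higher at 0.76.

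Cldn16 had values of 3.87, 4.20 and 4.34 in corn oil and 4.31, 4.41 and 4.62 in flutamide litters (lowest, median, highest). In the flutamide group 6 of 7 litters were above every corn oil litter, and corn oil replicate 6 lay far below the rest of its group. The difference was 0.26 (SE 0.07; limma adjusted p = 0.336), or 0.20 without corn oil replicate 6. Both genes are dim on this array, where the median difference of genes with like signal was 0.03, and no gene was called present or absent.

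**Figure D4:**
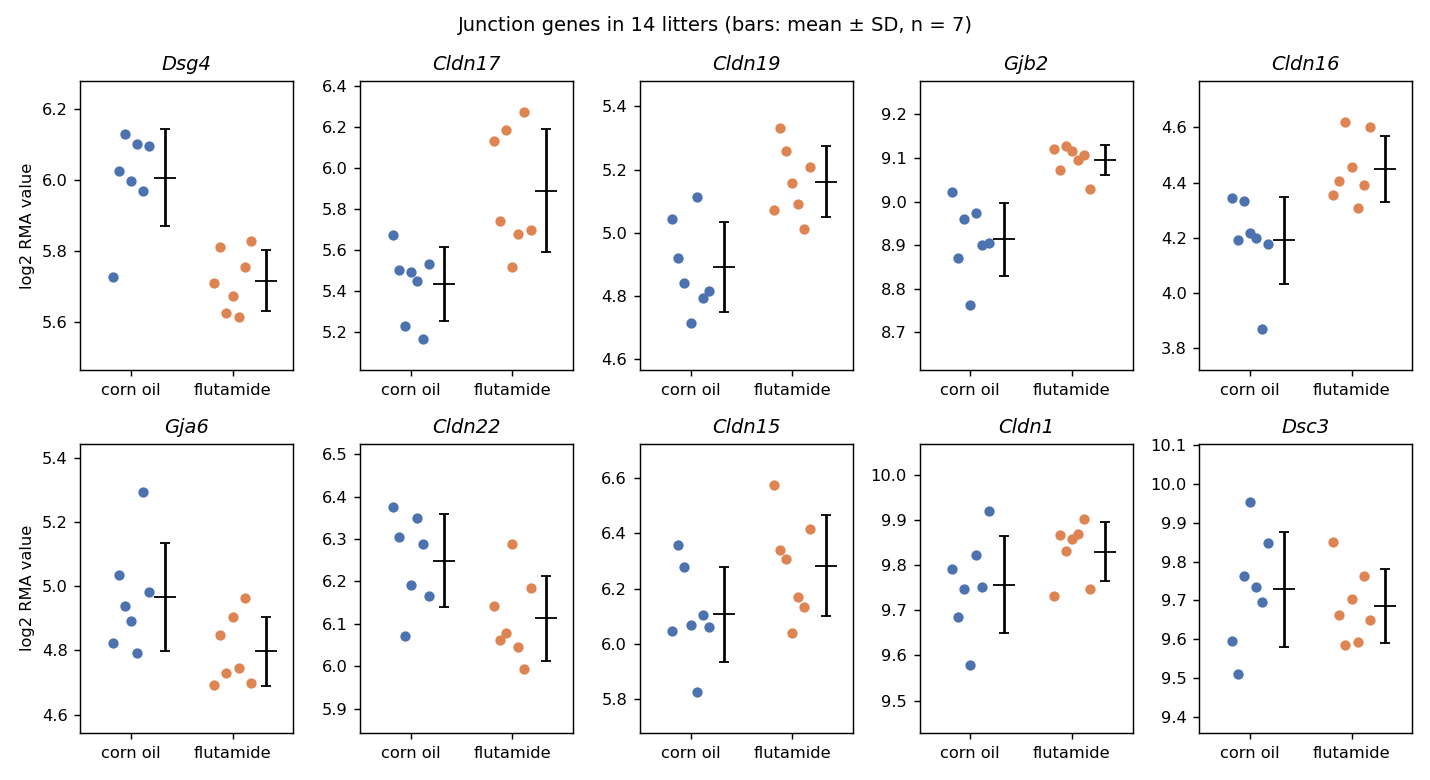
Log2 RMA values of 10 junction genes in every litter, corn oil in blue and flutamide in orange, with the mean and SD (n = 7) beside each group. The groups separate completely for Gjb2, nearly so for Dsg4, Cldn17 and Cldn16, and overlap broadly for Cldn1 and Dsc3.

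Cldn1, the claudin without which the newborn epidermis loses water, had values of 9.58, 9.75 and 9.92 in corn oil and 9.73, 9.86 and 9.90 in flutamide litters (lowest, median, highest). The flutamide litters lay inside the corn oil range, and the difference was 0.07 (SE 0.06; interval -0.05 to 0.19; limma adjusted p = 0.741). Cldn22 had values of 6.07, 6.29 and 6.37 in corn oil and 5.99, 6.08 and 6.29 in flutamide litters, and 6 of the 7 flutamide litters were below the corn oil median. Its difference was -0.14 (SE 0.06; limma adjusted p = 0.524). Cldn15, which forms a cation pore in the intestine, had values of 5.83, 6.07 and 6.36 in corn oil and 6.04, 6.31 and 6.58 in flutamide litters. The groups overlapped, and the difference was 0.18 (SE 0.09; limma adjusted p = 0.560).

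The other claudins had differences between -0.12 and 0.13, each with an interval that included 0. Among sealing claudins of epithelia, Cldn4 differed by -0.03 (interval -0.26 to 0.20), Cldn3 by 0.009 (interval -0.16 to 0.17), Cldn7 by 0.10 (interval -0.06 to 0.26) and Cldn8 by 0.03 (interval -0.17 to 0.24). Among claudins tied to particular tissues, Cldn5 of endothelium differed by 0.003 (interval -0.20 to 0.21), Cldn11 of myelin and Sertoli cells by -0.04, Cldn18 of lung and stomach by 0.07, and Cldn14 and Cldn9 of the inner ear by 0.06 and 0.08. The pore-forming Cldn2 and Cldn10 differed by -0.08 and -0.12, and Cldn6, a claudin of embryonic epithelia, by 0.13. The remaining Cldn12, Cldn20, Cldn23 and Cldn24 differed by 0.02, 0.07, 0.04 and 0.06. Cldn24 varied most between litters of all 40 genes, with a pooled SD of 0.31, and its interval ran from -0.23 to 0.35.

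Of the connexins Gjb2, which is low in resting epidermis and abundant in mucosal and wounded epithelium, was the 1 junction gene of 40 whose groups did not overlap, as was the case for 0.124% of all genes tested. Its lowest, median and highest values were 8.76, 8.91 and 9.02 in corn oil and 9.03, 9.11 and 9.13 in flutamide litters. Every flutamide litter was above every corn oil litter, by a narrow margin between corn oil replicate 1 and flutamide replicate 7. The difference was 0.18 (SE 0.05), a 1.13-fold level, with a limma adjusted p of 0.317. The flutamide litters lay close together, with an SD of 0.03 against 0.08 in corn oil, and the pooled SD of 0.06 was the lowest of the 40 genes. Within groups Gjb2 and the mucosal keratin mean had an r of 0.49 (permutation p = 0.0401, adjusted 0.0401), where Cldn17 had 0.90. The rho of Gjb2 was 0.44 (permutation p = 0.0728, adjusted 0.0812), and its r was 0.34 without flutamide replicate 6 and corn oil replicate 1. By r over all 14 litters Gjb2 ranked 840 of 14493 genes outside the list, and 6 among the junction genes. The difference between the Gjb2 and Cldn17 correlations was not tested, nor was the part of mucosal epithelium in the Gjb2 difference.

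Gjb6, a connexin of hair follicle and thick epidermis that can share channels with Gjb2, had values of 7.94, 8.20 and 8.43 in corn oil and 8.13, 8.29 and 8.48 in flutamide litters (lowest, median, highest). The groups overlapped and the difference was 0.11 (interval -0.06 to 0.27). Gja1, the most widespread connexin of skin, present in epidermis, fibroblasts and smooth muscle, had values of 9.27, 9.33 and 9.49 in corn oil and 9.23, 9.45 and 9.52 in flutamide litters. Its groups overlapped as well, with a difference of 0.05 (interval -0.07 to 0.18). Gjb5, another epidermal connexin, differed by -0.05 (interval -0.21 to 0.11).

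Gja6, a connexin known from rodent testis, had values of 4.79, 4.94 and 5.29 in corn oil and 4.69, 4.75 and 4.96 in flutamide litters (lowest, median, highest). Of the flutamide litters 4 lay below every corn oil litter, and the difference was -0.17 (SE 0.07; limma adjusted p = 0.512), or -0.11 without corn oil replicate 6, whose value of 5.29 was the highest. The endothelial connexins Gja5 and Gja4 differed by -0.09 (interval -0.23 to 0.05) and 0.03 (interval -0.08 to 0.15). Endothelium markers, 7 of 7 measured, had a median difference of -0.06 with 6 below 0, and their mean differed by -0.07, or by -0.04 without corn oil replicate 1. Gja3 of the lens, the neuronal Gjd2, Gjb1 of liver and myelinating cells, Gjd3 and Gjd4 differed by 0.08, -0.06, -0.05, -0.02 and 0.08, with intervals that included 0.

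Several of these genes lie next to each other, and 14 of the 40 formed 7 pairs of adjacent protein-coding genes on GRCr8. The partners of a pair did not always share a difference. Cldn17 differed by 0.45 and its neighbour Cldn8 by 0.03, and Cldn16 differed by 0.26 and its neighbour Cldn1 by 0.07. Gjb2 and Gjb6 differed by 0.18 and 0.11, Cldn6 and Cldn9 by 0.13 and 0.08, and Dsc3 and Dsc2 by -0.04 and -0.11. Cldn22 and Cldn24 differed by -0.14 and 0.06, and Cldn3 and Cldn4 by 0.009 and -0.03, so 5 of the 7 pairs had the same sign. Differences within pairs were not tested.

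The proteins that junction cadherins, claudins and connexins bind or resemble were read from lists of the same systems, and none of their genes passed. In the tight junction list 16 of 19 genes were measured, 9 above 0 and 7 below, with a median difference of 0.03. Of the 16, 1 was higher at an unadjusted p under 0.05, against 5.70% of all genes tested. That gene was Pard6b, which encodes a polarity protein, with 0.19 (SE 0.08; limma adjusted p = 0.502), followed by Ildr1, a protein of tricellular contacts, with 0.12 (SE 0.07). The scaffold gene Tjp1 differed by 0.02 (SE 0.05) and occludin, Ocln, by -0.09 (SE 0.06). In the adherens junction list 11 of 12 were measured, 5 above 0 and 6 below, with a median of -0.02 and none at an unadjusted p under 0.05. Nectin2, an adhesion molecule, had -0.11 (SE 0.06), the cadherin gene Cdh2 had -0.08 (SE 0.05), and Cdh1, the epithelial cadherin, had 0.05 (SE 0.05). The 3 pannexins, membrane channels related in form to connexins, were all above 0 with a median of 0.09, led by Panx1 and Panx2 with 0.10 and 0.09 (SE 0.08 each).

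Markers of the cells that use these junctions moved little in most lists. Basal keratinocyte markers, 6 of 7 measured, were all below 0 with a median of -0.04, and their mean ran from 8.31 to 8.47 in corn oil and from 8.24 to 8.42 in flutamide litters. Suprabasal and cornified markers, 7 of 10 measured, had 4 above 0, a median of 0.001 and means from 9.37 to 9.50 and from 9.40 to 9.53. Markers of simple and glandular epithelium, 8 of 8 measured, had 6 below 0 and a median of -0.03. Of the 8, 1 was lower at an unadjusted p under 0.05, against 3.46% of all genes tested. Fibroblast markers, 6 of 6 measured, had 4 above 0 and a median of 0.01. Smooth muscle markers, 7 of 7 measured, were all below 0 with a median of -0.14. Of the 7, 3 were lower at an unadjusted p under 0.05, against 3.46% of all genes tested, and none passed the adjusted threshold. Among these markers Des, the muscle filament protein desmin, differed by -0.34 (SE 0.07, limma adjusted p = 0.302). All 7 flutamide litters lay below every corn oil litter for Des. The groups did not overlap for 0.124% of all genes tested. The list mean ran from 6.99 to 7.32 in corn oil and from 6.88 to 7.16 in flutamide litters. Their part in the junction gene values was not tested.

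Correlation from litter to litter was read for the 4 genes Dsg4, Cldn17, Cldn1 and Dsc3, and no pair passed the adjusted threshold. Over the 6 pairs, deviations from the group means had Pearson r between -0.24 and 0.36 over 14 litters. Dsg4 with Dsc3 gave the highest, with a permutation p of 0.284 and an adjusted p of 0.945, and a rho of 0.34 (permutation p = 0.255, adjusted 0.989). It was 0.19 without corn oil replicates 1 and 3. Dsg4 with Cldn17 gave the lowest, with a permutation p of 0.358, and a rho of -0.07 (permutation p = 0.810), and it was 0.05 without the same 2 litters. None of the 6 pairs had a relation past the threshold in these samples, which over 14 litters does not show that a relation is absent.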

How the data were processed

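RNA from rat foreskin was read on Affymetrix Gene 1.0 ST arrays, 1 per litter, 7 corn oil and 7 flutamide litters. The authors' table holds log2 values of 28826 probe sets, made with RMA per the submitters' processing notes (version and genome build not given in the sources used here). RMA shrinks differences of dim probe sets. Names came from GEO's platform annotation, updated through RefSeq (GRCr8), which matched 14471 of 14497 genes. Only the 15209 probe sets with 1 symbol were used, and the brightest was taken per gene. A probe set may also read near-identical copies of a gene.

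The test was limma's lmFit and eBayes (limma 3.58.1, R 4.3.3), two-sided; p-values were adjusted by Benjamini-Hochberg over all genes tested, with a threshold of 0.05; the fit was tested on simulated data. Intervals are 95% confidence intervals. Correlations used 100000 permutations within groups. Values were given in full for Dsg4, Cldn17, Cldn1 and Dsc3, for members with an unadjusted p under 0.05, filled to 8 by p, and for the member of highest mean signal in each family; of each list of junction partners the 2 genes with the smallest p were named. Other genes with values, such as Gjb6, Des and the keratins, were chosen after their values were seen. The members and lists were chosen with earlier results of these data known. Replicate numbers were shared between groups, and were not taken as pairs. The alternatives were other scalings, probe set summaries, filters and variance models, a replicate block and litters left out.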

Additional observations from a re-analysis of the deposited data

Results flagged for a closer look

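Among the 80 groups of 7 values, 5 held a litter far from the others, and chance gives about 1 in 20 such groups. Corn oil replicate 1 had the lowest Dsg4 value of its group, 5.73, with the next at 5.97. Corn oil replicate 6 had the lowest Cldn16 value, 3.87, with the next at 4.18. Flutamide replicate 3 had the lowest Cldn20 value, 5.13, with the next at 5.25. Corn oil replicate 2 had the lowest Gjb5 value, 7.44, with the next at 7.69. Corn oil replicate 4 had the lowest Gja4 value, 6.17, with the next at 6.32.

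Of the 26 groups of list means, 3 held such a litter. Corn oil replicate 1 was lowest on the hair follicle markers, 6.44, and highest on the endothelium markers, 7.15, where the next litters were at 6.61 and 6.94. Flutamide replicate 1 was lowest on the desmosome plaque partners, 8.74, with the next at 8.87.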

How the results depend on the processing

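No junction gene passed under any of the 23 other settings, 14 of which left out 1 litter, and 30 of the 40 genes kept their direction in every setting that tested them. The lowest adjusted p of any was 0.0673, for Dsg4 at -0.35 when corn oil replicate 1 and flutamide replicate 7 were both left out. With the replicate number as a block 0 junction genes and 0 genes in all passed, and 5 junction genes were higher and 2 lower at an unadjusted p under 0.05, with Cldn15 added and Cldn22 lost; same-numbered litters' deviations correlated at -0.07 to 0.15, above 0.1 in 1 of 7 pairs. Leaving out the same 2 litters also gave 0 genes in all. Over all genes the count was 1, it was 2 with genes above the median level alone and 2 with trend and robust variance, and 0 to 1 on leaving out each litter in turn. The directions that changed belonged to genes whose difference was small against its error. On leaving out each litter, Cldn5 lay between -0.071 and 0.054, Cldn3 between -0.042 and 0.052, Cldn24 between -0.033 and 0.13, Cldn4 between -0.091 and 0.024, Cldn8 between -0.0080 and 0.11, Cldn12 between -0.011 and 0.047, Cldn23 between -0.0098 and 0.092, Gjb1 between -0.10 and 0.0030, Gjd3 between -0.044 and 0.0054 and Dsc2 between -0.18 and -0.043. On leaving out those 2 litters together, Dsc2 was 0.018, Cldn24 -0.10, Cldn23 -0.0073 and Cldn3 -0.028. With array weights Cldn23 was -0.0074, Cldn3 -0.0042 and Cldn5 -0.0049, with arrays centred on their medians Cldn3 was -0.0026 and Cldn5 -0.0086, and with quantile normalization Cldn3 was -0.0026; the cause was not tested. Without the 2 litters farthest out, the correlation of Dsg4 with Cldn17 was 0.054 and that of Cldn17 with Cldn1 -0.043.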
